A study of Mus musculus with 4 samples.

Results

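The GTPases of the immunity-associated protein family (GIMAP) are encoded by *Gimap1*, *Gimap3*, *Gimap4*, *Gimap5*, *Gimap6*, *Gimap7*, *Gimap8* and *Gimap9*, 8 of the 21926 genes in the deposited tables. They were taken by these symbols alone, and all 8 had UMIs in both libraries. A UMI (unique molecular identifier) marks 1 captured RNA molecule. The single-cell RNA-seq data came from unsorted thymocytes of 1 WT mouse, *Eif4g2* flox/flox with no Cre, and 1 *Eif4g2* cKO mouse, *Eif4g2* flox/flox with *Cd4*-*Cre*, a transgene active from the double-positive stage on, so that earlier cells of the cKO still carry the floxed gene. Both mice were labelled female, 5 weeks old and of the same batch. *Eif4g2* encodes a translation initiation factor related to eIF4G1.

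GIMAP proteins are GTP-binding proteins related to septins and dynamins. They are made mainly in lymphocytes, sit on intracellular membranes and are best known for their part in lymphocyte survival: loss of *Gimap5* leaves mice and rats short of peripheral T cells, and GIMAP6 takes part in autophagy. In the thymus, T cell precursors pass from the CD4-CD8- double-negative (DN) stage through a proliferating phase to the CD4+CD8+ double-positive (DP) stage, and those that are positively selected become CD4 or CD8 single-positive (SP) cells. The question asked of these 8 genes was at which of these stages each was detected, and how the levels in *Eif4g2* cKO cells compared with those in WT cells.

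The 8 genes lie side by side on mouse chromosome 6, between 48647234 and 48770851 (GRCm38), over 124 kb. In order along the chromosome they are *Gimap8* (chr6:48647234-48660875), *Gimap9* (chr6:48676129-48679114), *Gimap4* (chr6:48684549-48692060), *Gimap6* (chr6:48701582-48708225), *Gimap7* (chr6:48718621-48724636), *Gimap1* (chr6:48739054-48743795), *Gimap5* (chr6:48746197-48754210) and *Gimap3* (chr6:48764464-48770851). *Gimap6* and *Gimap3* are on the minus strand and the other 6 on the plus strand. The coding sequences held 291 to 328 codons, except for that of *Gimap8*, which held 688.

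The stretch that the family shares most visibly is the phosphate-binding loop (P-loop, or G1 motif) of the GTPase domain. It is shown because it marks every member as a GTPase gene and sets *Gimap8*, with 3 such motifs, apart from the others, with 1 each. The capitals mark the 8 codons of the motif in the GENCODE M21 transcripts, read 5′ to 3′ on the coding strand, and lie wholly within coding exons.
Gimap1 (chr6:48742552-48742575, plus strand): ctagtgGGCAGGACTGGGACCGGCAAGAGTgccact
Gimap3 (chr6:48765887-48765910, minus strand): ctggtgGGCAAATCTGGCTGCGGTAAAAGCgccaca
Gimap5 (chr6:48752594-48752617, plus strand): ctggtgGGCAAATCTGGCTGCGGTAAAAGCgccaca
Gimap4 (chr6:48690421-48690444, plus strand): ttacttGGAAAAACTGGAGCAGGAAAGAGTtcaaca
Gimap6 (chr6:48702750-48702773, minus strand): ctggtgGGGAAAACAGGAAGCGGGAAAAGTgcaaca
Gimap7 (chr6:48723524-48723547, plus strand): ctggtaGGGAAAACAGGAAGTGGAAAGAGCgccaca
Gimap9 (chr6:48677523-48677546, plus strand): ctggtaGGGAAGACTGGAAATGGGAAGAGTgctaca
Gimap8, motif 1 (chr6:48650256-48650279, plus strand): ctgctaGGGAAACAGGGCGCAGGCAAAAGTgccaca
Gimap8, motif 2 (chr6:48656119-48656142, plus strand): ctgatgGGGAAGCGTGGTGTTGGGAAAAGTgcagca
Gimap8, motif 3 (chr6:48658746-48658769, plus strand): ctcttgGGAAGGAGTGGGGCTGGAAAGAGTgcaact

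*Gimap3* and *Gimap5* had the same 24 bases in the motif, and the next closest pair, *Gimap6* and *Gimap7*, shared 20 of 24. Over the whole coding sequence *Gimap3* and *Gimap5* were identical at 90.3% of aligned bases, and every other pair at 55.9% to 66.7%. The counts are tags from the 3′ end of the RNA, and within the last 500 bases of their transcripts *Gimap3* and *Gimap5* shared no run of 50 bases. Reads further upstream could fall on either gene, so *Gimap3* and *Gimap5* are reported as separate with that reservation.

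Stages were named from marker genes ("X-like"), since no cell annotation was used here. After the cell filter there were 6012 WT and 4335 *Eif4g2* cKO cells, with a median of 1732 and 2140 UMIs per cell. DN-like cells numbered 97 in WT and 126 in the cKO, proliferating-like cells 1001 and 1307, DP-like cells 3338 and 2092, early post-selection-like cells 627 and 502, and mature SP-like cells 786 and 263. Mature SP-like cells were 13.1% (95% exact binomial interval 12.2 to 14.0) of WT and 6.07% (5.37 to 6.82) of cKO cells. There was 1 library per genotype, so no difference between genotypes has a replicate check, and all intervals given are 95% intervals that cover counting error only.

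2 facts of the libraries stand against their labels or between them. The WT library held 2542 UMIs over *Kdm5d*, *Uty* and *Eif2s3y*, genes of the Y chromosome, and the cKO library held 1, although both mice were labelled female, so sex and genotype cannot be told apart. *Eif4g2* itself, the deleted gene, had 259 CPM (UMIs of the gene over all UMIs of the stage, scaled to 1e+06) in WT and 523 CPM in cKO DP-like cells, and 190 and 340 CPM in mature SP-like cells. A 3′ tag can lie outside the deleted exons, so these values do not check the deletion. The libraries also shared 1055 barcode names, which are numbers given within each library and do not mark shared cells.

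Summed over the 8 genes, the *Gimap* level in CPM, a share of all UMIs, was lowest in proliferating-like cells among the 5 thymocyte stages. It was highest in mature SP-like cells, and both held in each library. In WT it was 459 CPM (exact Poisson interval 408 to 516) in DN-like, 232 (221 to 243) in proliferating-like, 1015 (988 to 1043) in DP-like, 1526 (1459 to 1595) in early post-selection-like and 1664 (1618 to 1712) in mature SP-like cells. In the cKO the corresponding levels were 360 CPM (321 to 402), 194 (186 to 203), 1012 (978 to 1046), 1493 (1424 to 1565) and 1585 (1508 to 1664). The intervals of early post-selection-like and mature SP-like cells overlapped in the cKO and did not in WT. The order of the stages was the same in both libraries.

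Cells of different stages were sequenced to different depths (median 5220 UMIs in WT proliferating-like and 1402 in WT DP-like cells), so each cell was also thinned to 1000 UMIs. A UMI of any of the 8 genes was then seen in 22.1% of proliferating-like, 38.1% of DN-like, 56.1% of DP-like, 70.3% of early post-selection-like and 76.2% of mature SP-like WT cells. In the cKO these shares were 20.7%, 33.3%, 59.5%, 75.1% and 77.6%. The share in WT erythroid-like cells, which should lack the genes, was 11.4% of 44 cells (3.79 to 24.6, median depth 6090 UMIs). That interval covered the shares of proliferating-like cells, so the thinned share alone did not set those cells apart from background. It lay below the shares of the other 4 stages. Thinning removes a larger part of the UMIs of cells as deep as the erythroid-like ones than of DP-like cells (median 1402). The erythroid-like share is therefore not a matched background for every stage. Without thinning, 20.5% of WT erythroid-like cells held such a UMI, at a mean of 0.318 per cell. In WT proliferating-like cells (median depth 5220 UMIs) these values were 67.6% and 1.75. Without thinning the WT shares were 67.6%, 79.4%, 68.6%, 85.2% and 95.5%, in the same order of stages. After thinning, 40.7% of WT and 38.0% of cKO mature SP-like cells held UMIs of at least 2 members, against 17.4% and 21.2% of DP-like cells.

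**Figure D1:**
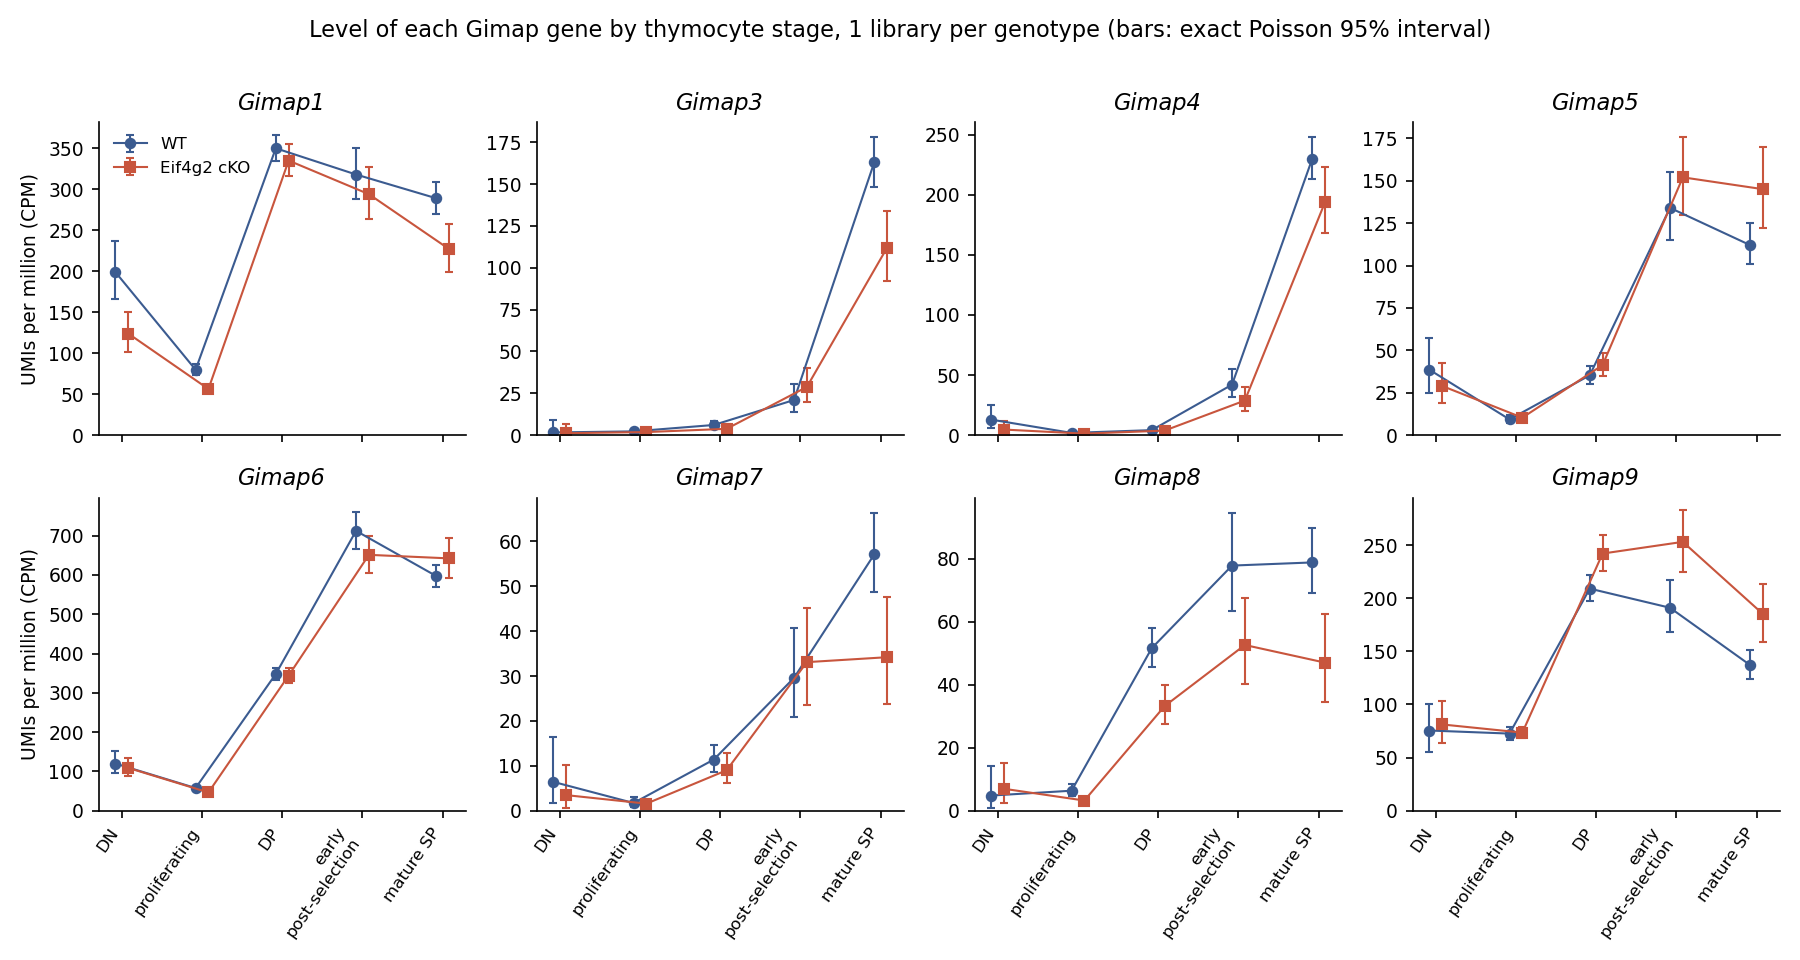
Level in CPM (y axis, linear from 0) of each of the 8 Gimap genes in the 5 thymocyte stages (x axis) in the WT library (circles) and the Eif4g2 cKO library (squares). Bars are exact Poisson 95% intervals of the summed UMIs. Gimap3 and Gimap4 lie between 1.61 and 12.9 CPM in WT until the DP stage and reach 163 and 230 CPM in WT mature SP-like cells, whereas Gimap1 and Gimap9 are as high in DP-like as in early post-selection-like WT cells within their intervals.

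*Gimap4* and *Gimap3* differed most between stages. *Gimap4*, whose product has been linked to the timing of T cell death, had 22 UMIs in 3338 WT DP-like cells (4.17 CPM) and 678 UMIs in 786 WT mature SP-like cells (230 CPM, 213 to 248). In the cKO it had 13 UMIs in DP-like (3.78 CPM) and 198 in mature SP-like cells (194 CPM, 168 to 223). The mature SP-like level was 55.2-fold the DP-like level in WT and 51.2-fold in the cKO, with log2 ratios of 5.79 (5.18 to 6.47) and 5.68 (4.87 to 6.61).

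Of this difference in *Gimap4*, a 10.1-fold step lay between DP-like and early post-selection-like WT cells (42.0 CPM), and a 5.48-fold step between those and mature SP-like cells. WT DN-like cells had 8 UMIs of *Gimap4*, in 4.12% of the cells (12.9 CPM, 5.55 to 25.3), a count too small for the 50-UMI limit. WT erythroid-like cells had 0 UMIs of *Gimap4*, with an interval up to 13.6 CPM. The NKT or gamma delta T markers summed to 255 CPM in WT DN-like and 27.1 CPM in WT DP-like cells. WT NKT or gamma delta T-like cells had 308 CPM of *Gimap4*. The presence of *Gimap4* above background before the DP stage is therefore not settled, and the part of such cells was not tested. After thinning, 0.359% of WT DP-like and 19.8% of WT mature SP-like cells held a *Gimap4* UMI, and 0.287% and 17.9% of the cKO cells. The same gene thus separated the stages by share of cells as well as by level.

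*Gimap3*, the gene closest to *Gimap5* in sequence, was also low until the DP stage and highest in mature SP-like cells. It had 6.07 CPM in DP-like, 21.0 in early post-selection-like and 163 (148 to 178) in mature SP-like WT cells, and 3.78, 28.8 and 112 (92.0 to 134) CPM in the cKO. The mature SP-like over DP-like ratio was 26.8-fold in WT, with a log2 ratio of 4.75 (4.23 to 5.31), and 29.5-fold in the cKO, with a log2 ratio of 4.88 (4.05 to 5.83). Between early post-selection-like and mature SP-like cells it was 7.75-fold in WT and 3.87-fold in the cKO; the difference between these folds was not tested.

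*Gimap5*, *Gimap6* and *Gimap8* were already present in DP-like cells and higher after selection. *Gimap7* was also higher after selection, but low in DP-like cells, with 60 UMIs in 1.65% of the WT cells (11.4 CPM). WT erythroid-like cells had 0 UMIs of *Gimap7*, with an interval up to 13.6 CPM, so its presence in DP-like cells above background is not settled. *Gimap5*, the member required for T cell survival, had 35.3 CPM in DP-like, 134 in early post-selection-like and 112 in mature SP-like WT cells, and 41.3, 152 and 145 CPM in the cKO. Its increase was complete at the early post-selection stage, 3.79-fold in WT and 3.68-fold in the cKO, and the mature SP-like level did not differ from the early one beyond counting error (log2 -0.25, -0.52 to 0.02, in WT and -0.07, -0.39 to 0.25, in the cKO). *Gimap6*, the member linked to autophagy, had 348, 712 and 597 CPM in the same 3 stages in WT and 344, 651 and 642 CPM in the cKO.

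*Gimap7*, a GTPase known to form dimers, had 11.4, 29.6 and 57.1 CPM in WT and 9.02, 33.1 and 34.2 CPM in the cKO. Between early post-selection-like and mature SP-like cells its log2 ratio was 0.95 (0.43 to 1.50) in WT and 0.05 (-0.65 to 0.75) in the cKO, the latter on 39 and 35 UMIs. These intervals overlapped, and the difference between the libraries was not tested. *Gimap8*, the member with 3 GTPase motifs, had 51.6, 77.8 and 78.8 CPM in WT and 33.2, 52.6 and 47.0 CPM in the cKO. Its mature SP-like over DP-like log2 ratio was 0.61 (0.35 to 0.87) in WT and 0.50 (-0.02 to 1.00) in the cKO.

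*Gimap1* and *Gimap9* had their highest level in WT at the DP stage. *Gimap1*, which mature lymphocytes need to persist, had 350 CPM in DP-like, 318 in early post-selection-like and 289 in mature SP-like WT cells, and 335, 294 and 227 CPM in the cKO. *Gimap9* had 209, 191 and 137 CPM in WT and 242, 253 and 185 CPM in the cKO. The mature SP-like over DP-like log2 ratio of *Gimap9* was -0.61 (-0.78 to -0.45) in WT and -0.39 (-0.63 to -0.16) in the cKO, and it became -0.15 and 0.12 relative to the median ratio of genes with at least 200 UMIs. That of *Gimap1* was -0.28 (-0.40 to -0.16) and -0.56 (-0.77 to -0.36), and it became 0.19 and -0.05. The lower level of both genes in mature cells therefore depended on the scaling, while the higher level of *Gimap3*, *Gimap4*, *Gimap5*, *Gimap6*, *Gimap7* and *Gimap8* did not.

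**Figure D2:**
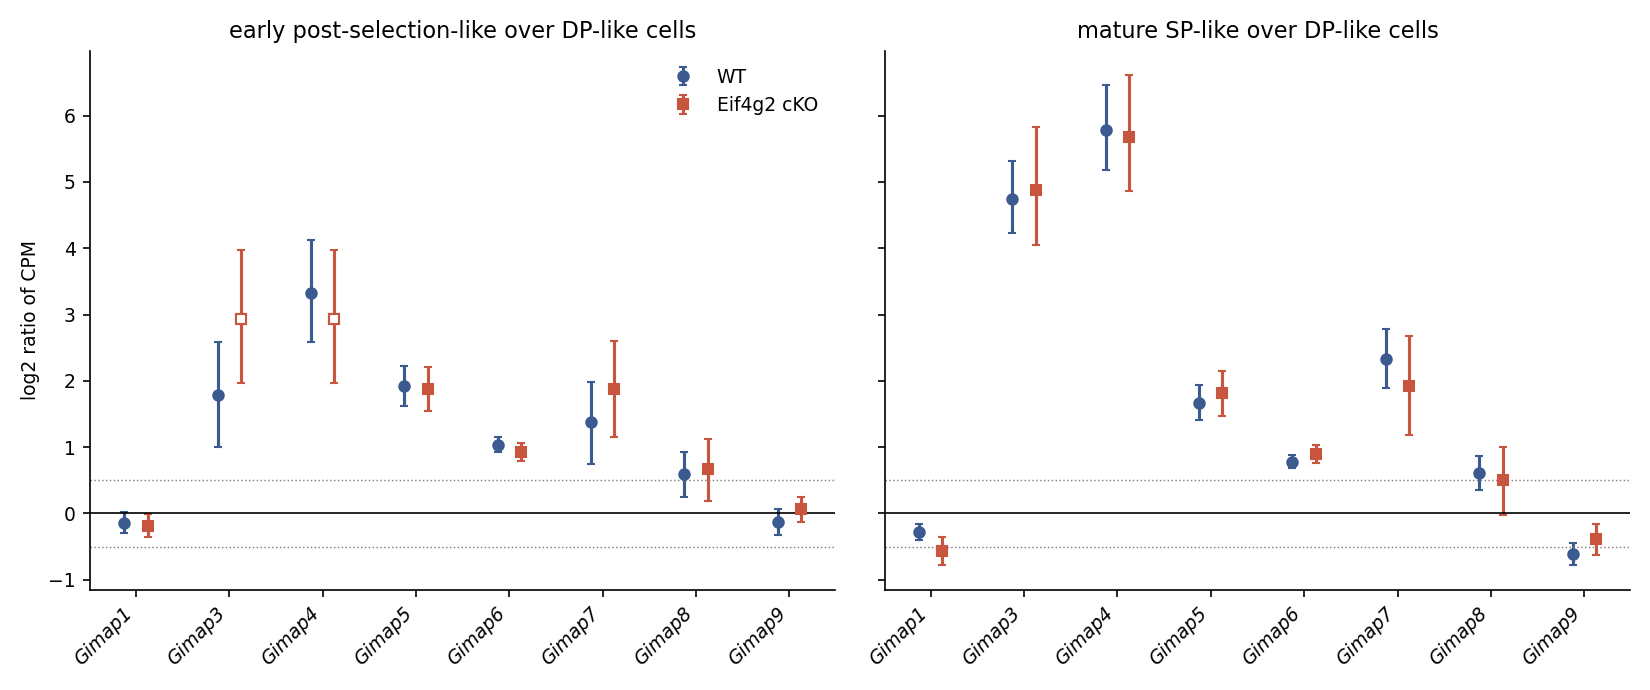
Log2 ratio (y axis) of the CPM of each Gimap gene in early post-selection-like cells (left) and mature SP-like cells (right) to that in DP-like cells of the same library (WT circles, Eif4g2 cKO squares), with exact conditional 95% intervals. Open symbols have under 50 UMIs over both stages and dotted lines mark 0.5 in either direction. Gimap4 and Gimap3 stand highest in the right panel, at 5.79 and 4.75 in WT, and Gimap1 and Gimap9 are the members near or below 0 in both panels.

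A log2 ratio beyond 0.5, the size limit the study used, on at least 50 UMIs over both stages is called higher or lower in what follows. In mature SP-like over DP-like cells, 6 of 8 members were higher and 1 (*Gimap9*) lower in WT, where 13.0% of all tested genes were higher and 46.5% lower. In the cKO 6 of 8 were higher and 1 (*Gimap1*) lower, against 7.77% and 52.2% of all tested genes. The median log2 ratio was 1.23 over the members and -0.44 over all tested genes in WT, and 1.36 and -0.53 in the cKO. When cells were gated by single marker genes instead of clusters, the log2 ratio of the summed level fell short of the limit in the cKO (0.04), and there *Gimap4* was at 3.59 and *Gimap8* at -0.27. *Gimap8* in the cKO was at the limit (0.50, -0.02 to 1.00) and passed it under 5 of 11 alternatives.

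In early post-selection-like over DP-like cells, 6 of 8 members were higher in WT, where 12.1% of all tested genes were, and 4 of the 6 with enough UMIs in the cKO, where 8.55% were. *Gimap1* and *Gimap9* were the members that were not higher, in each library. In mature SP-like over early post-selection-like cells, *Gimap3*, *Gimap4* and *Gimap7* were higher in WT (9.87% of all tested genes) and *Gimap3* and *Gimap4* in the cKO (5.87%). No member was lower in that comparison, in which 31.7% of all tested genes were lower in WT and 32.4% in the cKO.

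In CPM, most members with enough UMIs were lower in proliferating-like and DN-like than in DP-like cells. Proliferating-like cells were named by cell cycle genes, and whether they came before or within the DP stage was not tested. In proliferating-like over DP-like cells all 6 members with enough UMIs were lower in WT and all 5 in the cKO, where 53.1% and 56.4% of all tested genes were. The log2 ratios ran from -3.02 for *Gimap8* to -1.53 for *Gimap9* in WT. In DN-like over DP-like cells 5 of 6 members were lower in WT and 5 of 5 in the cKO, against 51.7% and 53.9% of all tested genes. *Gimap5* was the member not lower in WT DN-like cells, with 38.6 CPM against 35.3 CPM in DP-like cells, and *Gimap1* had 199 CPM in WT DN-like and 79.8 CPM in WT proliferating-like cells.

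Mature SP-like cells were next divided by their own UMIs. In WT, 167 cells held UMIs of *Cd4* and none of *Cd8a* or *Cd8b1* (only-*Cd4* cells) and 277 the reverse (only-*Cd8* cells), and in the cKO there were 51 and 66. Left out of this split were 246 WT and 122 cKO cells with UMIs of both, and 96 and 24 with neither. *Gimap6* had 780 CPM in only-*Cd4* and 513 in only-*Cd8* cells of WT, and 1053 and 539 CPM in the cKO. Its log2 ratio was 0.60 (0.42 to 0.79) in WT and 0.97 (0.63 to 1.30) in the cKO, and it was above 0 under all 8 other ways of choosing the cells, from 0.45 to 0.87 in WT and from 0.79 to 1.44 in the cKO.

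*Gimap5* showed the reverse order in WT, with 87.7 CPM in only-*Cd4* and 143 CPM in only-*Cd8* cells. The log2 ratio was -0.70 (-1.21 to -0.22) and remained below 0 under the 8 other ways of choosing the cells (-0.77 to -0.40). In the cKO the values were 140 and 218 CPM (log2 -0.64, -1.43 to 0.11, on 21 and 57 UMIs), and under those alternatives the ratio ran from -0.61 to 0.83, so its direction there is not settled. In this comparison 1 of 8 members was higher and 1 lower in WT, where 13.4% of all tested genes were higher and 10.5% lower. In the cKO 3 of 6 (*Gimap3*, *Gimap6* and *Gimap9*) were higher and 1 lower, against 16.3% and 6.16%. Of these, *Gimap3* (log2 0.63, -0.22 to 1.48) was -0.28 at a clustering resolution of 1.6, and *Gimap9* (0.76, 0.05 to 1.47) was -0.11 at a resolution of 0.6, so their direction in the cKO is not settled either.

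*Klf2*, a transcription factor, and *S1pr1*, the receptor that leads cells out of the thymus, mark the cells closest to leaving. In WT, 361 mature SP-like cells held a UMI of either gene and 425 did not, and in the cKO 95 and 168. *Gimap3* had 198 CPM in the cells with and 118 CPM in those without in WT, and 140 and 91.7 CPM in the cKO. *Gimap9* had 110 and 171 CPM in WT and 128 and 225 CPM in the cKO. The log2 ratio was 0.75 (0.47 to 1.04) and 0.61 (0.05 to 1.16) for *Gimap3*, and -0.64 (-0.93 to -0.35) and -0.82 (-1.30 to -0.35) for *Gimap9*.

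*Gimap5* was higher in the cKO cells with a *Klf2* or *S1pr1* UMI, with 204 against 103 CPM (log2 0.98, 0.49 to 1.47), and had 123 against 99.1 CPM in WT (log2 0.31, -0.01 to 0.64). Cells with such a UMI held more UMIs in all (a mean of 4574 against 3040 in WT and 4448 against 3570 in the cKO), and the part of depth was not tested. At a clustering resolution of 1.6 the *Gimap3* ratio was -0.06 in the cKO and the *Gimap9* ratio 0.16 in WT, and with cells gated by single markers the *Gimap9* ratio was 0.46 in the cKO, whereas the *Gimap5* ratio in the cKO was between 0.64 and 1.42 under all 8 alternatives.

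**Figure D3:**
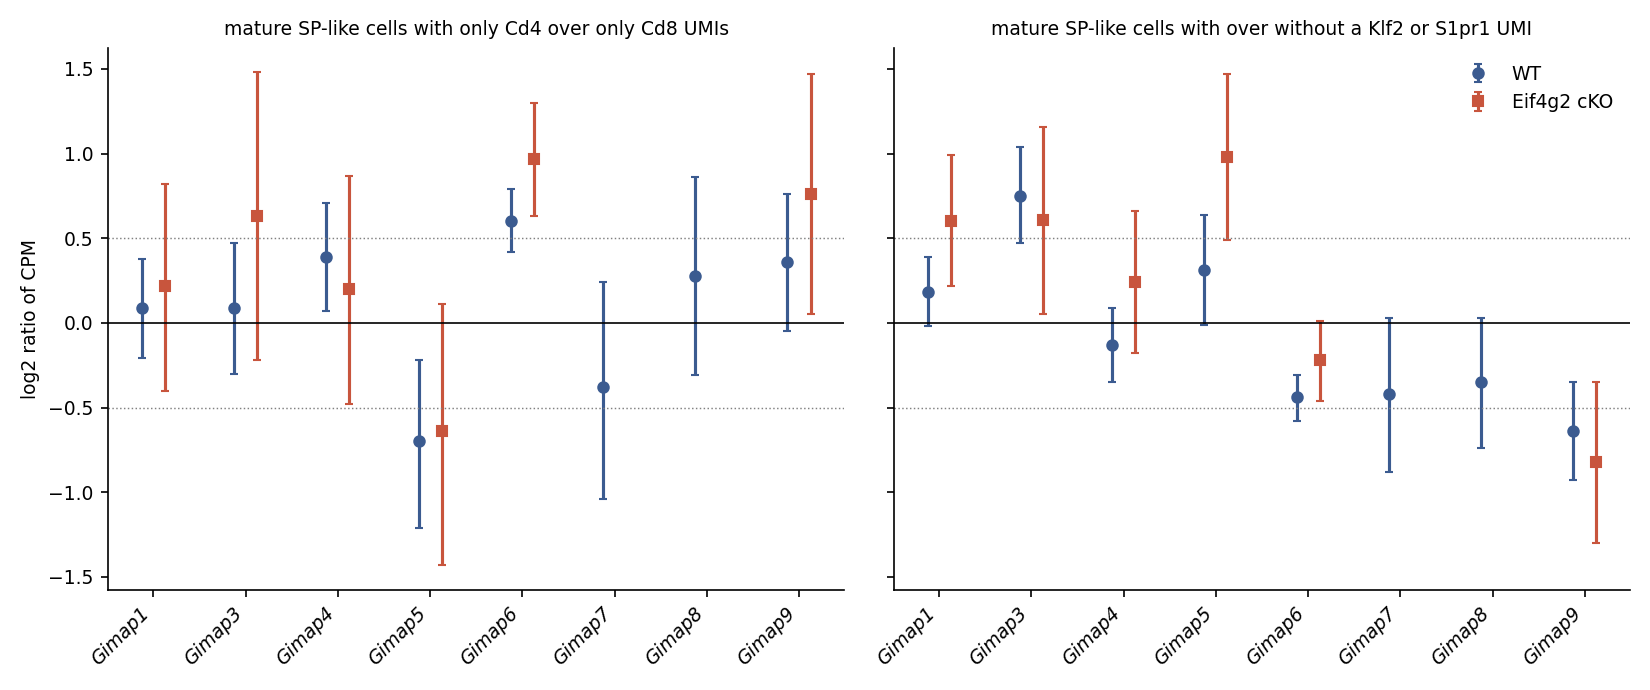
Log2 ratio of CPM between mature SP-like cells with only Cd4 and with only Cd8 UMIs (left) and with and without a Klf2 or S1pr1 UMI (right), for each Gimap gene with at least 50 UMIs in both parts together, with exact conditional 95% intervals. In the left panel Gimap6 lies above 0 and Gimap5 below 0 in both libraries, and in the right panel Gimap3 lies above 0 and Gimap9 below 0.

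Between the genotypes, the summed *Gimap* level of mature SP-like cells was 1664 CPM in WT and 1585 CPM in the cKO, a log2 ratio of -0.07 (-0.15 to 0.01). The mean number of *Gimap* UMIs per mature SP-like cell was 6.23 in WT and 6.16 in the cKO. Under 13 alternatives the ratio ran from -0.57, with cells gated by single marker genes, to 0.22, in only-*Cd4* cells, so the level of the sum in the cKO depended on how the cells were chosen. The ratio was -0.03 (-0.12 to 0.06) in early post-selection-like and -0.01 (-0.07 to 0.06) in DP-like cells, -0.25 (-0.34 to -0.16) in proliferating-like cells and -0.35 (-0.59 to -0.12) in DN-like cells. The last 2 differences had intervals below 0 and stayed within the 0.5 limit.

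The members differed in opposite directions. *Gimap8* was lower in the cKO over the whole of each of the 4 stages where it had enough UMIs. It had 78.8 CPM in WT (232 UMIs) and 47.0 CPM in cKO (48 UMIs) mature SP-like cells, a log2 ratio of -0.75 (-1.23 to -0.29). The ratio was -0.56 (-1.05 to -0.09) in early post-selection-like, -0.64 (-0.97 to -0.32) in DP-like and -0.97 (-1.63 to -0.32) in proliferating-like cells. In mature SP-like cells it was below 0 under all 13 alternatives, from -1.30 to -0.37, and beyond -0.5 in 10 of them.

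The DP-like value of *Gimap8* compares groups of different make-up. DP-like cells of the 2 libraries fell mostly in different clusters, with 1899 of 2092 cKO cells in cluster 0 and 1610 and 1549 of 3338 WT cells in clusters 1 and 2. Within clusters 0, 1 and 2 the *Gimap8* ratio was -0.13 (-1.11 to 1.04), -0.22 (-1.70 to 0.95) and -0.31 (-1.39 to 0.61), each smaller than over the whole group. Proliferating-like cells were split likewise, with cluster 6 mostly WT (523 against 68 cells) and cluster 7 mostly cKO (25 against 566 cells), and in clusters 5 and 8 the *Gimap8* ratio was -0.87 (-1.91 to 0.19) and 0.39 (-1.08 to 1.84). In cluster 4, with 525 of 627 WT and 455 of 502 cKO early post-selection-like cells, it was -0.35 (-0.88 to 0.18), and in cluster 10, with 102 and 47 cells, -1.72 (-3.45 to -0.34). Mature SP-like cells of both libraries lay in the same clusters, 748 of 786 WT and 250 of 263 cKO cells in cluster 3, where the *Gimap8* ratio was -0.72 (-1.21 to -0.26). Their make-up still differed, with UMIs of both *Cd4* and *Cd8* genes in 246 of 786 WT and 122 of 263 cKO cells. In these the *Gimap8* ratio was -0.91 (-1.62 to -0.25). It was -0.37 (-1.35 to 0.49) in only-*Cd8* and -0.38 (-1.61 to 0.68) in only-*Cd4* cells. In cells with neither it was -2.25 (-5.36 to -0.26), on 2 cKO UMIs. The part of make-up in the mature SP-like value was not tested.

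*Gimap7* and *Gimap3* were also lower in cKO mature SP-like cells. *Gimap7* had 57.1 CPM in WT (168 UMIs) and 34.2 CPM in the cKO (35 UMIs), a log2 ratio of -0.74 (-1.31 to -0.21). *Gimap3* had 163 and 112 CPM, a log2 ratio of -0.55 (-0.85 to -0.25). Neither call was stable: over 13 alternatives *Gimap7* ran from -1.11 to 0.07 and was beyond -0.5 in 7, and *Gimap3* ran from -1.45 to -0.05 and was beyond it in 6. *Gimap7* had 74.5 CPM in WT and 34.4 CPM in cKO only-*Cd8* cells, against 57.2 and 60.0 CPM in only-*Cd4* cells, on 9 cKO UMIs in each.

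*Gimap9* and *Gimap5* had the opposite direction. *Gimap9* had 137 CPM in WT and 185 CPM in cKO mature SP-like cells (log2 0.44, 0.18 to 0.69), with ratios of 0.40 (0.15 to 0.65) in early post-selection-like and 0.21 (0.08 to 0.34) in DP-like cells. In mature SP-like cells it was above 0 under all 13 alternatives, from 0.10 to 0.63. The interval included 0 in only-*Cd8* (0.11, -0.46 to 0.64) and only-*Cd4* cells (0.51, -0.10 to 1.09). It also did in cells with a *Klf2* or *S1pr1* UMI (0.22, -0.24 to 0.67). It lay above 0 in cells without such a UMI (0.40, 0.08 to 0.71) and in those with both *Cd4* and *Cd8* UMIs (0.51, 0.13 to 0.89). The part of make-up was not tested. Within DP-like clusters 0, 1 and 2 the *Gimap9* ratio was -0.07 (-0.43 to 0.31), 0.21 (-0.33 to 0.70) and -0.24 (-0.76 to 0.23). The higher DP-like value was thus not seen within each cluster. In early post-selection-like clusters 4 and 10 the ratio was 0.33 (0.07 to 0.60) and -0.24 (-1.32 to 0.75), and in mature SP-like cluster 3 it was 0.45 (0.18 to 0.71). *Gimap5* had 112 and 145 CPM (log2 0.36, 0.07 to 0.65), and 143 and 218 CPM in only-*Cd8* cells (log2 0.61, 0.15 to 1.06). Over the 13 alternatives the *Gimap5* ratio in mature SP-like cells ran from -0.10 to 0.73 and so crossed 0. Neither gene passed 0.5 over all mature SP-like cells.

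*Gimap6* and *Gimap1* had small ratios in DP-like cells, where both had over 1000 UMIs in each library. *Gimap6* had 597 CPM in WT and 642 CPM in cKO mature SP-like cells, a log2 ratio of 0.10 (-0.03 to 0.23), and -0.02 (-0.12 to 0.09) in DP-like cells, which became 0.16 relative to the median of genes with at least 200 UMIs. *Gimap1* had a ratio of -0.35 (-0.57 to -0.14) in mature SP-like and -0.06 (-0.17 to 0.04) in DP-like cells. It was lower in DN-like cells, with 199 CPM in WT and 124 CPM in the cKO (log2 -0.68, -1.07 to -0.30), and at the limit in proliferating-like cells (log2 -0.50, -0.67 to -0.34). *Gimap4* had a ratio of -0.25 (-0.49 to -0.02) in mature SP-like and -0.54 (-1.21 to 0.10) in early post-selection-like cells, the latter on 54 and 34 UMIs and 0.24 when cells were gated by single markers.

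**Figure D4:**
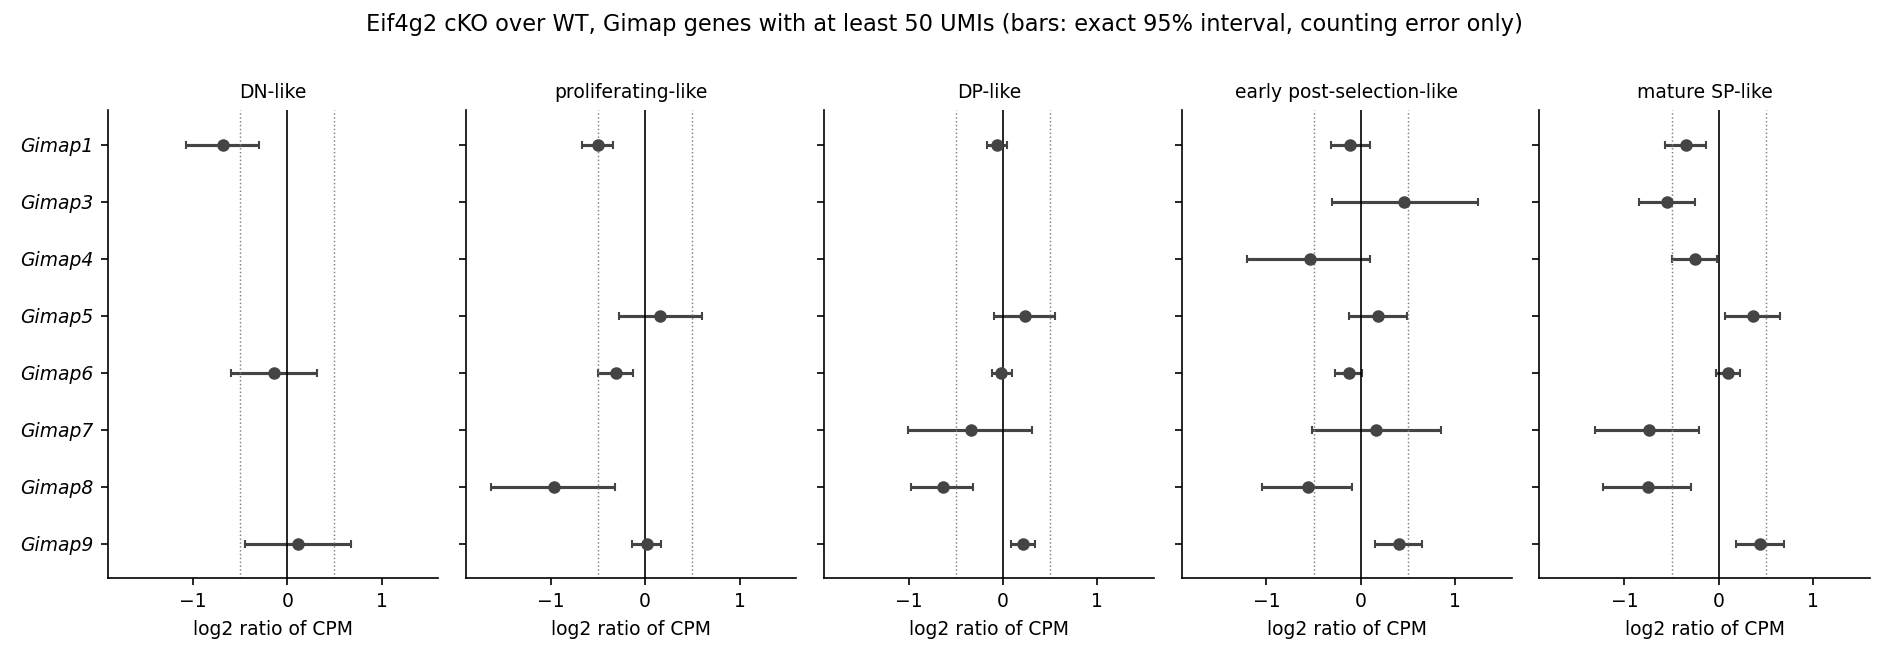
Log2 ratio of the CPM in the Eif4g2 cKO library to that in the WT library (x axis) for each Gimap gene with at least 50 UMIs over both libraries, in 5 stages, with exact conditional 95% intervals that cover counting error only. Dotted lines mark 0.5 in either direction. Taken over whole stages and not within clusters, Gimap8 lies below 0 in the 4 stages where it is shown, and Gimap9 above 0 in DP-like, early post-selection-like and mature SP-like cells.

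By the 0.5 limit, 3 of 8 members (*Gimap3*, *Gimap7* and *Gimap8*) were lower and 0 higher in cKO mature SP-like cells, where 37.0% of all tested genes were lower and 7.83% higher. In early post-selection-like cells 2 of 8 (*Gimap4* and *Gimap8*) were lower and 0 higher, against 34.3% and 8.08%. In DP-like cells 1 of 6 (*Gimap8*) was lower and 0 higher, against 29.5% and 8.46%. In proliferating-like cells 2 of 5 (*Gimap1* and *Gimap8*) were lower and 0 higher, against 35.3% and 3.25%, and in DN-like cells 1 of 3 (*Gimap1*) was lower, against 26.4%. The members' counts were close to those of all genes, so they are no result about the family.

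The median log2 ratio of all tested genes in mature SP-like cells was -0.27, and that of genes spanning 2 to 15 kb, the range of all 8 *Gimap* genes, was 0.03. The members' median was -0.30. Relative to the median of all tested genes the ratios of *Gimap8* and *Gimap7* were -0.48 and -0.47, within the limit, that of *Gimap3* was -0.28 and that of *Gimap9* 0.70. Relative to the median of genes with at least 200 UMIs they were -0.56, -0.55, -0.36 and 0.63. Relative to the median of genes spanning 2 to 15 kb they were -0.78, -0.77, -0.58 and 0.41. Markers of other cell types moved with genotype in mature SP-like cells. The 16 myeloid and dendritic markers summed to 94.8 CPM in WT and 31.3 CPM in the cKO, with 2 and 6 of them at 0, and the 5 erythroid markers to 208 and 11.7 CPM, with 0 and 2 of them at 0. The NKT or gamma delta T markers summed to 303 and 172 CPM and the endothelial markers to 140 and 44.0 CPM. The NKT list moved in the same direction as *Gimap3*, of which WT NKT or gamma delta T-like cells had 264 CPM. The part of the erythroid, NKT and endothelial signals was not tested. Without mature cells that held at least 3 myeloid or dendritic UMIs the ratio was -0.77 for *Gimap8*, -0.76 for *Gimap7* and -0.52 for *Gimap3*, close to the values with them.

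The promoters of the members with the most different courses are shown for comparison: *Gimap4* and *Gimap3*, higher in mature cells, and *Gimap9*, not higher. Each is the 120 bases before the earliest annotated start, from RefSeq (GRCm38.p6), 5′ to 3′ on the gene's strand. Capitals mark matches to 3 of the 7 motifs searched on both strands (RUNX TGTGGT, ETS AGGAAG and KLF CACCC, or their reverse complements).
Gimap4 (chr6:48684429-48684548, plus strand): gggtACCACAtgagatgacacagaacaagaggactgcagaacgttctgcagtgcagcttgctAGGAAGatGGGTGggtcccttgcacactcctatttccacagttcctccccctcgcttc
Gimap3 (chr6:48770852-48770971, minus strand): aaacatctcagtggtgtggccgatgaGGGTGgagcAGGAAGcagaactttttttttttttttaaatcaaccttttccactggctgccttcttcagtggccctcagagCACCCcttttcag
Gimap9 (chr6:48676009-48676128, plus strand): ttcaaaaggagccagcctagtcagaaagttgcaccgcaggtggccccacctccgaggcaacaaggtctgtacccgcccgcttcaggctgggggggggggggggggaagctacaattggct

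Over the 300 bases from 250 before to 50 after each start, the ETS letters occurred in the promoters of 7 of the 8 members, all but *Gimap6*, and in 35.4% of 32817 promoters. KLF letters occurred in 5 members and 57.5% of promoters, RUNX letters in 3 (*Gimap1*, *Gimap4* and *Gimap7*) and 16.8%, and STAT letters (TTCNNNGAA) in 4 and 8.3%. TCF and LEF letters (CTTTGA) occurred in 2 members and 16.0% of promoters, FOXO letters (GTAAACA) in *Gimap3* alone among the members and in 3.6%, and E-box letters (CAGCTG) in 0 and 16.3%. The *Gimap9* promoter held ETS and KLF letters as well, outside the bases shown. A match is a run of letters and was not tested for binding.

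The genes whose level followed the summed *Gimap* level most closely over the 5 stages and 2 libraries (10 points that share libraries and depth, among 8836 genes) were *Cdc42se1*, with Pearson r = 0.98 on log2(CPM + 10), and *Dusp6*, *Ltb*, *Vasp* and *Cytip*, with r = 0.97 each. *Cdc42se1* had 67.5, 53.0, 109, 149 and 155 CPM in DN-like, proliferating-like, DP-like, early post-selection-like and mature SP-like WT cells. Among the members, *Gimap6* followed the sum of the others most closely (r = 0.98), and *Gimap3* (0.72) and *Gimap4* (0.69) least. These correlations are descriptions and carry no p-value.

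Other lists gave a frame for the family. Of 14 other immune GTPases (IRG and GBP families among them), 9 had enough UMIs in WT mature SP-like over DP-like cells. Of these, 5 were higher and 1 lower, against 13.0% and 46.5% of all tested genes. Their median log2 ratio was 0.75, below the members' 1.23. In the cKO 1 of 6 was higher and 1 lower, against 7.77% and 52.2%, with a median of 0.19, below the members' 1.36. In cKO over WT mature SP-like cells 3 of 9 were lower (*Gbp4* -0.60, *Gbp8* -0.91 and *Irgm2* -2.20) and 0 higher, where 37.0% of all tested genes were lower. Of the 8 septins and dynamins, GTPases of related fold, 3 of 7 were lower in the cKO, against the same 37.0% (*Sept9* -0.58, *Dnm2* -1.65 and *Dnm1l* -1.49). Of 16 neighbours of the *Gimap* genes along the chromosome, 14 were in the tables, and only *Zfp467*, a zinc finger gene, had enough UMIs over both libraries in mature SP-like cells, with 104 in WT and 11 in the cKO (log2 -1.72).

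Among 11 survival and autophagy partners of GIMAP proteins, *Bcl2*, which protects cells from death, was higher in mature cells, as *Gimap3* and *Gimap4* were, with 30.7 CPM in DP-like and 309 CPM in mature SP-like WT cells, and 15.1 and 233 CPM in the cKO. It was the 1 member of that list that was higher, while 6 of 11 were lower in WT and 8 of 11 in the cKO, where 46.5% and 52.2% of all tested genes were. Between genotypes 1 of 11 was higher in cKO mature SP-like cells (*Bax*, which promotes death, 0.63) and 2 were lower (*Bcl2l11*, another death gene, -1.08, and *Gsk3b*, a kinase gene, -0.57). Of all tested genes, 7.83% were higher and 37.0% lower in that comparison. Of 14 maturation and egress genes 11 were lower in cKO mature SP-like cells, where 37.0% of all tested genes were, with a median of -0.77 against -0.27 for all tested genes, among them *Foxp1* (-1.49), *Ccr7* (-0.83), *Ms4a4b* (-0.70) and *Ms4a6b* (-0.63). All of these genes but *Foxo1*, *Foxp1*, *Klf3* and *Ly6a* were also markers by which mature SP-like cells were named.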

How the data were processed

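Thymocytes of 1 WT and 1 *Eif4g2* cKO mouse were captured with the DNBelab C4 system. The authors processed the reads with dnbc4tools (version 2.1.3 in the series text, 3.0 in the file headers) and deposited UMI counts per gene and barcode as whole numbers, with no normalization; every barcode held at least 1000 UMIs. Library totals were 18355050 (WT) and 18056277 (cKO) UMIs. The labels also list an oligo library for each mouse, which has no count table of its own here.

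Cells with at least 50 genes and at most 10% mitochondrial UMIs were kept, which removed 2 WT barcodes. No doublet caller was run; 264 WT and 419 cKO cells above 10000 UMIs were left out in an alternative. Counts were scaled to 10000 per cell, log-transformed and clustered over both libraries with scanpy 1.11.5 and leidenalg 0.10.2 (2000 variable genes without *Gimap* genes and *Eif4g2*, 30 components, 20 neighbours, resolution 1.0), again within the T lineage, and clusters were named from at least 3 raised markers. UMIs were summed by stage and library and given as CPM with exact Poisson intervals, and ratios with exact conditional binomial intervals. With 1 library per genotype no test was made. A ratio was called beyond 0.5 (log2) on at least 50 UMIs. Named genes were the 8 *Gimap* genes, *Eif4g2*, called members of the other lists (at most 4 each, by UMIs) and the 5 genes with at least 200 UMIs most correlated with the summed *Gimap* level; *Bcl2* and *Gm28053* were added after their values were seen. The members, lists and limits were chosen with earlier results of these data known. Positions came from GENCODE M21 (GRCm38), whose identifiers matched those of the 8 genes and of *Gm28053*, and promoters from RefSeq. The scripts were tested on simulated data. Alternatives covered cell filters, clustering, gating, scaling and UMI limits. PCR copies were collapsed by UMI, and intervals cover counting error only.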

Additional observations from a re-analysis of the deposited data

How the results depend on the processing

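No paired analysis was possible because each genotype has 1 library. For the same reason no replicate could be left out, and differences between mice cannot be told apart from differences between genotypes. Ratios below are log2. The cause of each shift was not tested. For the summed *Gimap* level in cKO over WT cells, gating by single markers gave -0.10 in DN-like (main value -0.35), -0.43 in proliferating-like (-0.25), 0.32 in early post-selection-like (-0.03) and -0.57 in mature SP-like cells (-0.07); that gate held 10 DN-like cells in each library and 63 and 47 early post-selection-like cells. Scaling to the median gene gave -0.02 in proliferating-like, 0.17 in DP-like (-0.01) and 0.12 in mature SP-like cells. Clustering each library alone gave -0.45 in proliferating-like and -0.20 in mature SP-like cells. In mature SP-like cells the value was 0.02 without cells above 10000 UMIs, -0.17 and 0.03 at resolutions 0.6 and 1.6, 0.02 in cells with a *Klf2* or *S1pr1* UMI (chosen after seeing the data), 0.22 in only-*Cd4* cells and 0.05 as a mean over cells.

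Among members, *Gimap4* in early post-selection-like cells was 0.24 with the marker gate (-0.54) and *Gimap7* in mature SP-like cells 0.07 in only-*Cd4* cells (-0.74). With no minimum on UMIs, 3 members were lower and 1 higher in DN-like cells (1 and 0 at 50 UMIs) and 2 lower in DP-like cells (1 at 50 UMIs); with at least 20 UMIs 2 were lower in DP-like cells.

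For the summed level over DP-like cells in WT, the DN-like ratio (-1.14) was -1.46 with the marker gate and -0.52 with median scaling. The proliferating-like ratio (-2.13) was -1.72 with 1000 to 10000 UMIs and at most 3% mitochondrial UMIs, -1.72 without cells above 10000 UMIs, -1.95 with each library clustered alone, -2.03 with the gate, -1.59 with median scaling and -1.78 as a mean over cells. The early post-selection-like ratio (0.59) was 0.67 without cells above 10000 UMIs, 0.68 and 0.67 at resolutions 0.6 and 1.6, 0.37 with the gate, 0.74 with median scaling and 0.68 as a mean. The mature SP-like ratio (0.71) was 0.79 with each library alone, 0.56 with the gate, 0.65 in cells with a *Klf2* or *S1pr1* UMI, 1.18 with median scaling and 0.91 as a mean.

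In the cKO, the DN-like ratio (-1.49) was -0.93 with median scaling. The proliferating-like ratio (-2.38) was -1.98 with the stricter filter, -1.95 without cells above 10000 UMIs, -1.83 with median scaling and -2.10 as a mean. The early post-selection-like ratio (0.56) was 0.67 without cells above 10000 UMIs, 0.75 with the gate, 0.74 with median scaling and 0.69 as a mean. The mature SP-like ratio (0.65) was 0.74 with the stricter filter, 0.77 without cells above 10000 UMIs, 0.50 at resolution 0.6, 0.04 with the gate, 1.16 with median scaling and 0.93 as a mean. *Gimap8* in cKO mature SP-like over DP-like cells was -0.27 with the gate (0.50).

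Between only-*Cd4* and only-*Cd8* cKO cells, *Gimap3* was -0.28 at resolution 1.6, *Gimap5* 0.00 at resolution 0.6 and 0.83 with the gate, and *Gimap9* -0.11 at resolution 0.6 and -0.06 with each library alone. Between cells with and without a *Klf2* or *S1pr1* UMI, *Gimap9* was 0.16 at resolution 1.6 in WT and 0.46 with the gate in the cKO, and *Gimap3* was -0.06 at resolution 1.6 in the cKO. Of 670 values of single members and shares of cells under an alternative, 516 kept their direction within the counting interval, 143 moved beyond it and 11 turned direction.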

Other observations

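Outside the main stages, the 55 NKT or gamma delta T-like cells of WT, T cells of innate type, had 1659 CPM (1487 to 1845) summed over the 8 *Gimap* genes, and the 14 such cells of the cKO had 1059 CPM (832 to 1330) on 74 UMIs. In these WT cells *Gimap3* had 264 CPM (198 to 345), with an interval above that of WT mature SP-like cells, and *Gimap4* had 308 CPM (237 to 394), with an interval that overlapped theirs. The 64 WT myeloid and dendritic-like cells had 786 CPM (669 to 916), and the 27 of the cKO had 476 CPM (319 to 683). In 44 WT erythroid-like cells the sum was 51.6 CPM (28.2 to 86.6).

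*Gm28053* is annotated as a read-through transcript that spans all of *Gimap7* and *Gimap1* and 80.5% of *Gimap5*. DP-like cells had 19.0 CPM of it in WT and 8.73 CPM in the cKO (log2 -1.12, -1.76 to -0.52), 35.8 and 14.4 CPM in early post-selection-like cells (log2 -1.31, -2.21 to -0.48), and 27.5 and 5.87 CPM in mature SP-like cells (log2 -2.23, -3.72 to -1.04). The mature SP-like values rest on 81 and 6 UMIs. It shared no run of 50 bases with the last 500 bases of any member, and how reads in the overlap were assigned is not given in the sources used here, so reads of *Gm28053* and of these 3 genes in the overlap cannot be told apart. *Gimap7* and *Gimap1* were lower in cKO mature SP-like cells in ratio (log2 -0.74 and -0.35) and *Gimap5* was not (0.36).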
